A study of Mus musculus with 6 samples.

Results

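Tetraspanins are small membrane proteins that cross the plasma membrane several times, expose a short and a long loop outside the cell, and gather integrins, immunoglobulin-domain proteins, metalloproteases and each other into membrane patches. In macrophages they are known for holding back or promoting cell-cell fusion, for adhesion and antigen uptake, and for sorting cargo into endosomes and exosomes. Macrophage precursors exposed to RANKL fuse into multinucleated osteoclasts, and Cd9, Cd81, Cd82, Tspan5 and Tspan13 have each been studied in that process. The members were the genes whose single symbol in the platform annotation is Tspan followed by a number, plus Cd9, Cd37, Cd53, Cd81, Cd82 and Cd151, which gave 25 genes of 18193 measured and 56 probe sets of 45037. Cd63 and Tspan7 were not analysed here. For a gene with several probe sets, the 1 of highest mean log2 intensity over the 6 arrays stands for it.

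Macrophages grown from the bone marrow of C57BL/6 mice, either wild type (WT) or carrying a knockin (KI), received 44 ng/ml M-CSF, the macrophage growth factor, together with 100 ng/ml RANKL, and were taken after 24 hours; 3 arrays were run per genotype. The series title names the IVVY motif, a stretch of the cytoplasmic tail of RANK, the RANKL receptor; the sources used here give neither the altered residues, nor the age or sex of the mice, nor whether replicates came from separate animals. If they did not, the p-values measure only the spread between these samples. Each value is the linear intensity of a probe set on an Affymetrix array, and because probe sets differ in brightness, no gene's level is ranked against another's, and sums over marker lists serve only to compare arrays. KI minus WT differences are on the log2 scale with the standard error (SE) of limma, and a gene passed at a Benjamini-Hochberg adjusted p below 0.05 over all genes.

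Median intensities of the arrays lay between 83.01 and 84.79. Tnfrsf11a, the RANK gene, gave differences of -1.14 and 0.22 from 2 probe sets, so it does not check the labels. All 8 macrophage markers lay above the median probe set and 7 of them rose in KI, with summed intensities of 90761 to 111245 in WT and 135581 to 141077 in KI. Of 9 osteoclast markers 7 fell, and their sum was 70462 to 81016 in WT but 32590 to 36449 in KI; Calcr, the calcitonin receptor of osteoclasts, lay below the median probe set in both groups. Sums of the measured markers of other cells were 15888 to 19911 on WT and 22195 to 43747 on KI arrays for neutrophils and myeloid progenitors (8 of 9 measured, 1 rose), and 2596 to 3487 on WT and 7612 to 9261 on KI arrays for megakaryocytes and erythroid cells (6 of 8 measured, with Pf4 the 1 that rose). Pf4 alone, at 2011 to 2898 on WT and 7032 to 8688 on KI arrays, made up most of the sums for megakaryocytes and erythroid cells. The groups overlapped for the other 5 genes of that list. For B cells (7 of 8 measured) the sums were 10896 to 13159 and 12234 to 13982, with 5 of the 7 below the median probe set. Blnk alone, at 10564 to 12669 on WT and 11860 to 13533 on KI arrays, made up most of these sums. For T and NK cells (6 of 8) they were 289.9 to 319.5 and 305.0 to 322.2, for mast cells and basophils (all 8) 350.2 to 400.0 and 359.4 to 384.1, and for stromal cells (7 of 8) 3049 to 10267 and 3077 to 12007, and no marker of these 4 cell types passed. The part of these cells in the results was not tested, and in bulk RNA fewer cells of a type and less RNA per cell cannot be told apart.

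Of the 25 tetraspanins, 8 rose in KI cells, 0 fell and 17 did not pass. Cd81 and Cd53 had the largest rises, each near 2-fold, followed by Tspan32, Tspan17, Tspan14, Tspan13, Tspan4 and Tspan31. Over all genes 26.8% passed in either direction, 11.9% as higher and 14.9% as lower, so the share of tetraspanins that passed, 8 of 25, was near that of all genes, and those that passed were all higher. At an unadjusted p below 0.05, 8 of the 25 tetraspanins passed, against 7099 of all 18193 genes. The median difference was 0.080 for the 25 tetraspanins and -0.0013 for all genes. Of the tetraspanins, 17 lay above the median intensity of all probe sets (84.7), and among these 8 of 17 (47.1%) rose, where 40.9% of genes this bright passed in either direction, 17.8% as higher and 23.1% as lower. The KI arrays lay wholly above the WT arrays for 9 members and wholly below for 0, against 20.7% and 24.9% of all genes; the 9 were all among the 17 bright members, and of all bright genes 28% and 36.3% were so placed. The count of 8 depended on single arrays. It was 5 without WT 2 or without KI 1, and 4 without KI 2 or without KI 3. The count of all genes higher in KI fell as well, from 2164 to 1309 without WT 2 and 1251 without KI 1. For all genes it was 1393 without KI 2 and 894 without KI 3.

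These directions are relative to the bulk of genes. Scaling the arrays to the hybridisation spike-ins, control RNAs added in known amount, moved the median of all genes from -0.0013 to -0.20. With it, 4 tetraspanins were higher and 1 lower, against 1281 and 4946 of all 18193 genes. Scaling by the array's older set of probes for these spike-ins (older spike-in scaling) moved that median to -0.52. It gave 0 tetraspanins higher and 5 lower, against 421 and 8198 of all genes. Against the median of all genes in the same scaling, Cd81 lay at 1.04, 1.03 and 1.02 in the deposited values, the spike-in scaling and the older spike-in scaling, and Cd9 at -0.078, -0.086 and -0.095. A scaling multiplies each array by a single factor. The distance of any gene from that median is therefore almost fixed by construction, and these values are no check on a call. Which scaling fits the cells was not tested.

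**Figure D1:**
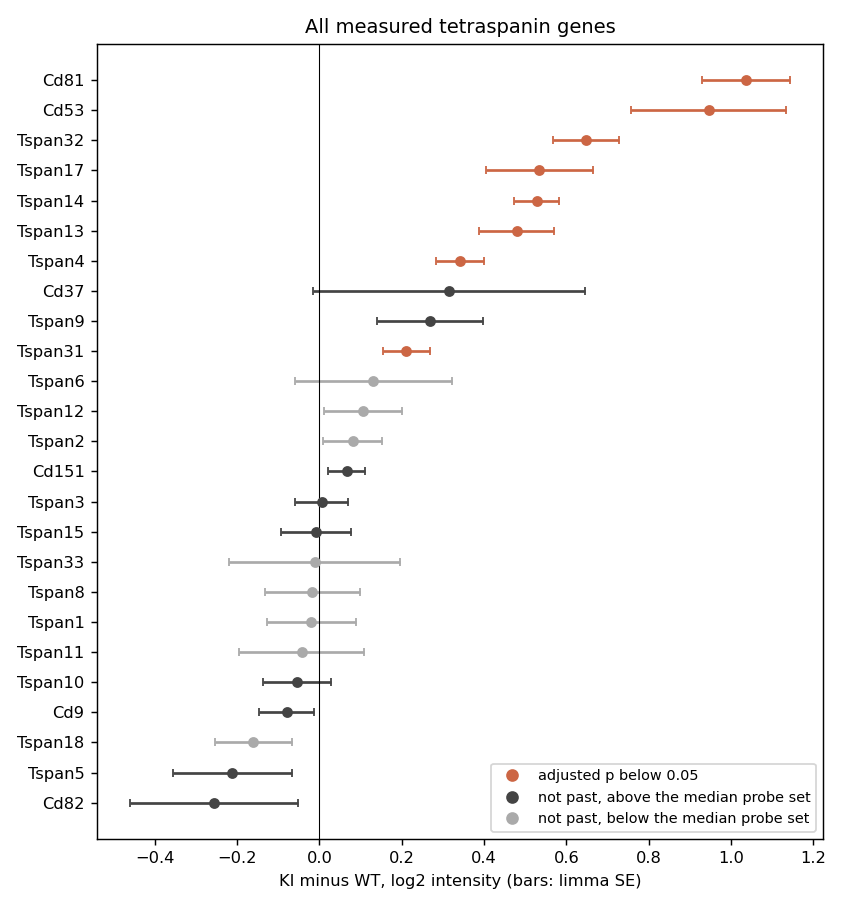
Difference in log2 intensity between KI and WT cells (horizontal axis, log2) for each of the 25 tetraspanin genes, with bars for the limma SE. The 8 genes past the threshold run from 0.21 for Tspan31 to 1.04 for Cd81, and no gene past the threshold lies left of 0.

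Upstream sequences are shown for Cd53 and Cd81, the members with the largest rises, and for Cd9, a close relative of Cd81 that did not pass, so that the windows can be read side by side. They are the 250 bases before the annotated start of each gene, 5′ to 3′ on the strand of the gene, from RefSeq on GRCm38.p6, where 24 of the 25 members had a window: Cd53 at chr3:106790150-106790399 (minus strand), Cd81 at chr7:143052500-143052749 (plus strand) and Cd9 at chr6:125494761-125495010 (minus strand). Capitals mark the GC box GGGCGG, read on both strands.
Cd53: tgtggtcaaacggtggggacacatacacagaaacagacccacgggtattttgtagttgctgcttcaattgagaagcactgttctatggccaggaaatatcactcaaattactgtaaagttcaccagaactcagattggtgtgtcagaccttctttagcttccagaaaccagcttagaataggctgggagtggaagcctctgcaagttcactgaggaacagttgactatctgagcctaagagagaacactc
Cd81: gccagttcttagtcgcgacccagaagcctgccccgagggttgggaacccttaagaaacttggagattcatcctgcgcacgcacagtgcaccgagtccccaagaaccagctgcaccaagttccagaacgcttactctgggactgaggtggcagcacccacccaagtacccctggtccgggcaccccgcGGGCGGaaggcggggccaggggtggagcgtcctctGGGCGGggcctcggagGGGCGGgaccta
Cd9: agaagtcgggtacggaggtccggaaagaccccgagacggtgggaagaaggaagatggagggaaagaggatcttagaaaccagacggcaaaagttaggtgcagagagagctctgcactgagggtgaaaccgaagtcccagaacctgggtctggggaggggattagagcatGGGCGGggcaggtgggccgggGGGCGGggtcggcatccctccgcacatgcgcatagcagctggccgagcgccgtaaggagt
The Cd81 window held 3 GC boxes and 16 CG dinucleotides, the Cd9 window 2 GC boxes and also 16 CG dinucleotides, and the Cd53 window 0 and 2. A GC box occurred in 32.7% of the 32851 windows of this length in the table, whose median was 6 CG dinucleotides. The PU.1 motif GAGGAAGT (2.44% of windows), the AP-1 motif TGANTCA (6.75%) and a kappa B motif (17.6%) had no match on either strand in these 3 windows, and the GC boxes overlapped no other match. Matches are given as letters only and bear on no factor. By gene order on the same assembly, Tspan32 and Cd81, which both rose, are neighbours on chromosome 7 with 0 protein-coding genes between them, while Cd151 and Tspan4, also on chromosome 7 with 1 gene between, differed in outcome: Tspan4 rose and Cd151 did not pass. Tspan18 and Cd82 on chromosome 2 and Tspan11 and Tspan9 on chromosome 6 are also neighbours with 0 protein-coding genes between them, and none of these 4 passed.

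Cd81 and Cd9, closely related tetraspanins that bind the same immunoglobulin-domain partners and restrain the fusion of macrophages into giant cells, differed in their values. Cd81 had intensities of 2717, 3409 and 2737 in WT cells and 5595, 6362 and 6141 in KI cells. The highest WT array lay far below the lowest KI array. The difference was 1.04 (SE 0.11, 2.05-fold, adjusted p = 0.0040). It passed in 19 of 20 alternative fits, with 0.51 (adjusted p = 0.084) under older spike-in scaling as the exception. Cd9 had intensities of 11079, 10909 and 10885 on WT and 9488, 11203 and 10497 on KI arrays. Its groups overlapped, with KI 1 lowest and KI 2 highest, and the difference was -0.079 (SE 0.067, adjusted p = 0.45); it passed as lower under older spike-in scaling (-0.61, adjusted p = 0.037). Tspan2 and Tspan8, which are related to Cd9, lay below the median probe set and did not pass.

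Among the tetraspanins of blood cells, Cd53, found on nearly all leukocytes, had intensities of 4977, 7731 and 7790 on WT and 13618, 12153 and 12930 on KI arrays. WT 1 was the lowest array, and all KI arrays lay above all WT arrays. The difference was 0.95 (SE 0.19, 1.93-fold, adjusted p = 0.019). A second probe set of Cd53, at 77.2, 123.5 and 99.2 in WT and at 268.1, 225.9 and 264.9 in KI, also kept the groups apart and rose by 1.36 (SE 0.19, adjusted p = 0.013 over all probe sets, of which 18.7% passed). The call of the gene ended when KI 1 (adjusted p = 0.067), KI 2 (0.052) or KI 3 (0.070) was dropped. It also ended under older spike-in scaling (0.42, adjusted p = 0.14). The same held when the running number that each description carries entered as a covariate (0.96, adjusted p = 0.098). KI 2 and KI 3 carry the highest of these numbers, so the covariate partly tracks genotype. A call lost with it does not by itself show a smaller difference. Without WT 1 the difference was 0.73 (adjusted p = 0.0037).

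Tspan32, a tetraspanin of haematopoietic cells also called Tssc6, had intensities of 379.0, 449.7 and 429.4 on WT and 653.0, 666.7 and 646.6 on KI arrays. The KI arrays lay close together and above every WT array. It rose by 0.65 (SE 0.079, 1.57-fold, adjusted p = 0.0056) and passed without any 1 of the 6 arrays. Its other probe set did not pass: intensities of 451.2, 450.1 and 416.7 on WT and 418.2, 528.5 and 528.0 on KI arrays overlapped, with a difference of 0.15 (SE 0.11, adjusted p = 0.40). The probe set that stands for the gene is of a type that can match more than 1 transcript, a probe set of broader match; when that type was dropped, the gene took the value of the other (0.15, adjusted p = 0.38). Under older spike-in scaling the difference was 0.12 (adjusted p = 0.70).

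Cd37, a leukocyte tetraspanin that binds the fungal receptor dectin-1, had intensities of 1136, 2167 and 2580 on WT and 2730, 1936 and 2310 on KI arrays. WT 1 lay below every other array, and the groups overlapped. The difference was 0.31 (SE 0.33, adjusted p = 0.55), and it turned to -0.038 (adjusted p = 0.91) without WT 1. Mean macrophage marker values, centred on each gene's mean over the arrays, were -0.86 for WT 1, -0.25 for WT 2 and -0.16 for WT 3, while KI 1, KI 2 and KI 3 stood at 0.50, 0.37 and 0.39; the part of this in the low WT 1 values of Cd37 and Cd53 was not tested. Cd82, a tetraspanin of the plasma membrane and of vesicles that engulf microbes, had intensities of 2456, 3062 and 3033 on WT and 2757, 1767 and 2754 on KI arrays. KI 2 was the lowest array and the rest overlapped. The difference was -0.26 (SE 0.20, adjusted p = 0.43), or -0.042 without KI 2, and under older spike-in scaling it passed as lower (-0.79, adjusted p = 0.013).

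**Figure D2:**
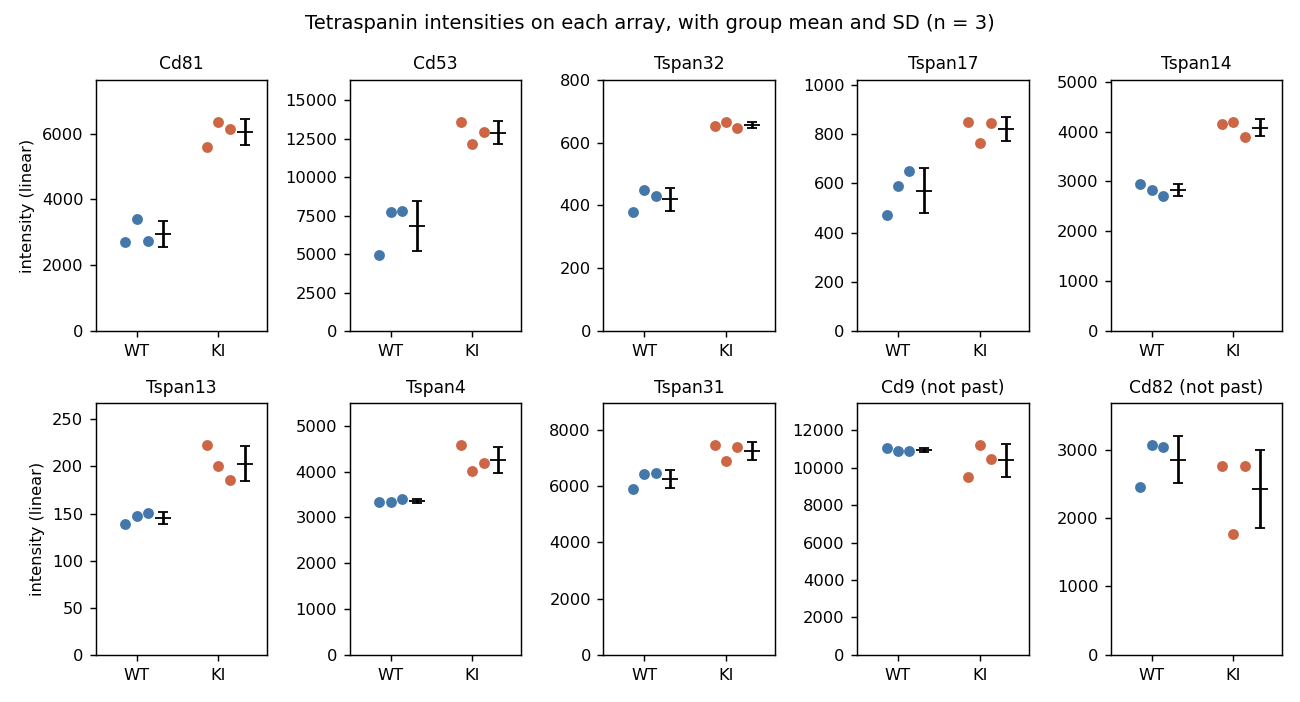
Linear intensity on each of the 3 WT and 3 KI arrays (vertical axes, each starting at 0) for the 8 tetraspanins that passed and for Cd9 and Cd82, which did not. Black marks show the group mean and SD; the groups are apart for each of the 8 and overlap for Cd9 and Cd82.

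Tetraspanins of the C8 group, named for the cysteines of their long loop, carry the metalloprotease ADAM10 out of the endoplasmic reticulum and steer which proteins it sheds. All 6 were measured: Tspan14 and Tspan17 rose, 0 fell, and Tspan5, Tspan10, Tspan15 and Tspan33 did not pass. With 11.9% of all genes higher and 26.8% past the threshold in either direction, 2 of 6 is too few genes to read as a result about the group. Their median difference was -0.0095. Tspan14 had intensities of 2953, 2824 and 2707 on WT and 4146, 4199 and 3885 on KI arrays. The groups lay well apart. It rose by 0.53 (SE 0.055, 1.44-fold, adjusted p = 0.0039) and passed without any 1 of the arrays, but its only probe set is also of the type that can match more than 1 transcript, and under older spike-in scaling the difference was -0.0022 (adjusted p = 0.99).

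Tspan17 had intensities of 472.8, 590.5 and 648.4 on WT and 849.9, 764.7 and 844.6 on KI arrays. WT 1 was lowest, and the KI arrays lay above the WT arrays. The rise was 0.53 (SE 0.13, 1.45-fold, adjusted p = 0.033); its second probe set had a difference of 0.43 (SE 0.12, adjusted p = 0.069 over all probe sets). The call was lost when WT 2 (adjusted p = 0.075) was dropped, and likewise for KI 1 (0.101), KI 2 (0.066) and KI 3 (0.108), without WT 1 and KI 1 together (0.38, adjusted p = 0.054), with the covariate (0.15), without the probe sets of broader match (0.43, adjusted p = 0.055), with spike-in scaling (0.33, adjusted p = 0.053) and with the older spike-ins (0.0035, adjusted p = 0.99).

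Tspan5, reported to rise during RANKL-driven differentiation and to be needed for it, had intensities of 296.4, 227.5 and 209.9 on WT and 197.9, 208.7 and 220.8 on KI arrays. WT 1 was highest, and the remaining arrays overlapped. The difference was -0.21 (SE 0.14, adjusted p = 0.35), -0.065 without WT 1 and -0.74 (adjusted p = 0.025) under older spike-in scaling. Its second probe set, with 111.2, 69.3 and 71.5 on WT and 55.0, 49.9 and 54.0 on KI arrays, lay lower on every KI array and differed by -0.63 (SE 0.20, adjusted p = 0.093 over all probe sets). Tspan10 stood at 80.8, 90.3 and 92.9 in WT and at 86.0, 79.8 and 88.1 in KI, a difference of -0.054 (SE 0.083, adjusted p = 0.69). Tspan15 stood at 111.0, 111.6 and 112.6 in WT and at 102.9, 108.7 and 122.7 in KI, a difference of -0.0075 (SE 0.085, adjusted p = 0.97). For both, the KI range held or overlapped the WT range.

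Tspan33 lay below the median probe set, at 53.6, 58.2 and 61.0 in WT and 41.3, 68.6 and 65.6 in KI. The KI arrays lay on both sides of the WT arrays, with a difference of -0.012 (SE 0.21, adjusted p = 0.99). Its 4 probe sets disagreed. Of the 56 tetraspanin probe sets, 1 of Tspan33 was the only one past the threshold as lower (10.5% of all probe sets were), with 50.3, 51.2 and 53.4 on WT and 40.2, 45.3 and 40.2 on KI arrays and a difference of -0.30 (SE 0.067, adjusted p = 0.037), while another of them differed by 0.12 (adjusted p = 0.36). All 4 lie near the low end of the scale, where the table gives no detection call.

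Tspan13, also called NET-6 and reported to fall as precursors respond to RANKL, had intensities of 138.5, 147.1 and 150.4 on WT and 222.3, 200.9 and 185.7 on KI arrays. Every KI array lay above every WT array. It rose by 0.48 (SE 0.091, 1.39-fold, adjusted p = 0.017). Its second probe set, with 137.3, 139.6 and 127.7 on WT and 152.2, 149.6 and 156.6 on KI arrays, also kept the groups apart but did not pass (0.18, SE 0.064, adjusted p = 0.12 over all probe sets). The call ended without WT 2 (adjusted p = 0.051) or KI 2 (0.053) and under spike-in scaling (0.27, adjusted p = 0.067), and the difference was -0.051 under older spike-in scaling.

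Tspan4, a tetraspanin of migrasomes, the vesicles that migrating cells leave behind, had intensities of 3335, 3330 and 3406 on WT and 4573, 4018 and 4181 on KI arrays. The WT arrays lay within a narrow range below all KI arrays. It rose by 0.34 (SE 0.058, 1.27-fold, adjusted p = 0.013); the call ended without KI 3 (adjusted p = 0.053) and under spike-in scaling (0.14, adjusted p = 0.14), and the difference was -0.19 under older spike-in scaling. Cd151, the tetraspanin most tightly bound to laminin-binding integrins, ranged from 2391 to 2567 on WT and from 2543 to 2625 on KI arrays. The ranges overlapped, the difference was 0.066 (SE 0.045, adjusted p = 0.35), and none of its 6 probe sets passed.

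Tspan31, first found as a gene amplified in sarcomas, had intensities of 5883, 6423 and 6450 on WT and 7442, 6876 and 7384 on KI arrays. The groups did not overlap, but the difference was the smallest of those that passed, 0.21 (SE 0.057, 1.16-fold, adjusted p = 0.046). The call ended when any 1 of the 6 arrays was left out (adjusted p from 0.060 without KI 2 to 0.15 without KI 3, and 0.0705 without WT 1, 0.0857 without WT 2, 0.0771 without WT 3 and 0.125 without KI 1), with the covariate (0.15) and without the probe sets of broader match (0.0524). In the fit of all probe sets it did not pass (0.058). It also missed without the intensity trend of the variances (0.0505) and with the mean of its probe sets (0.085). The difference was 0.0048 with spike-in scaling and -0.32 with the older spike-ins.

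Of the members not yet described, Tspan9, a tetraspanin of platelets, had 145.7, 144.5 and 147.2 on WT and 158.7, 161.1 and 211.8 on KI arrays. The groups did not overlap, with KI 3 far above the others, and the gene did not pass (0.27, SE 0.13, adjusted p = 0.19, or 0.43 with adjusted p = 0.045 under array weights). Tspan3, a broadly expressed tetraspanin, ranged from 2404 to 2542 on WT and from 2274 to 2593 on KI arrays, with a difference of 0.0058 (SE 0.065, adjusted p = 0.97). With Tspan33, 8 members lay below the median probe set; the others were Tspan1, Tspan2, Tspan6, Tspan8, Tspan11, Tspan12 and Tspan18. Their intensities ran from 14.6 to 78.8, their differences from -0.16 to 0.13, and 0 of the 8 passed, at an adjusted or an unadjusted p below 0.05; of all genes this dim, 5.41% passed.

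Probe sets of the same gene were compared where a called gene had several. The genes that passed had 6 further probe sets, of Cd53, Tspan13, Tspan17, Tspan31 and Tspan32. All 6 were higher on average in KI, between 0.15 and 1.36, and 1, that of Cd53, passed over all probe sets, of which 8.18% rose. Among the 56 tetraspanin probe sets 14 had all KI arrays above all WT arrays and 4 had them below, against 17.9% and 21.9% of all probe sets. Cd81, Tspan4 and Tspan14 had a single probe set each.

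**Figure D3:**
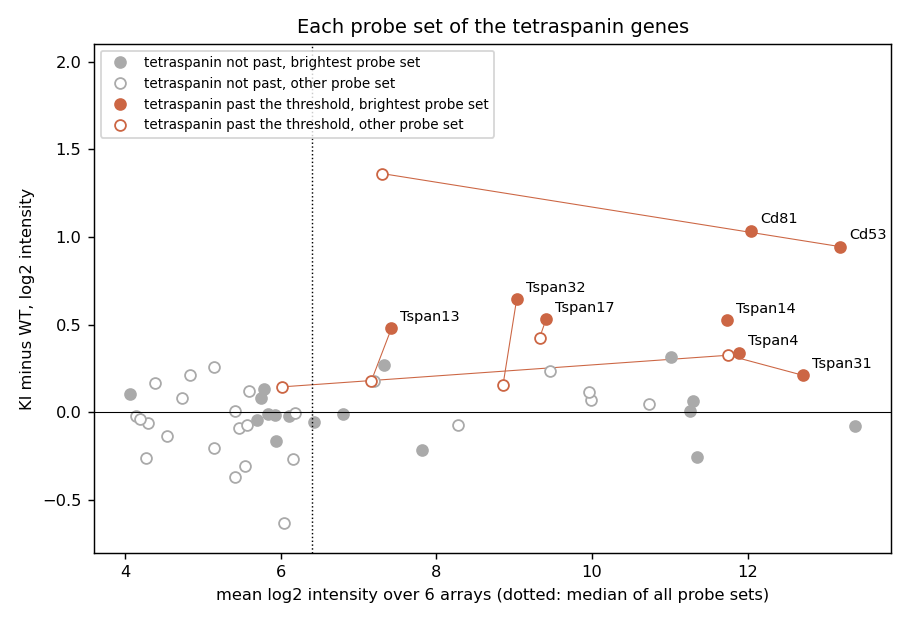
Difference in log2 intensity (vertical axis) against mean log2 intensity over the 6 arrays (horizontal axis) for the 56 tetraspanin probe sets, with lines joining probe sets of a gene that passed. The 6 further probe sets of called genes (open, orange) all lie above 0, and the lowest point, at -0.63, is the second probe set of Tspan5.

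The rises held to different degrees when the processing was changed. Under spike-in scaling Cd53, Cd81, Tspan14 and Tspan32 stayed past the threshold, and Cd81, Tspan14 and Tspan32 were the members that passed without any 1 of the 6 arrays. With the replicate number as a block only Cd81 passed, and Tspan14 (adjusted p = 0.052) and Tspan32 (0.060) did not. The block fit called 146 of all 18193 genes higher and 198 lower. With the description number as covariate, 5 of the 8 passed, namely Cd81, Tspan4, Tspan13, Tspan14 and Tspan32. So did Tspan12, whose intensities of 14.6 to 20.2 lie around the floor of 16. The covariate fit called 707 of all 18193 genes higher and 964 lower. Cd53, Tspan17 and Tspan31, which lost their calls in it, had differences of 0.961, 0.529 and 0.23. Without the covariate these were 0.945, 0.534 and 0.211. Because the covariate partly tracks genotype, the lost calls cannot tell an effect of the number from one of genotype. Without the probe sets of broader match, Cd53, Cd81, Tspan4 and Tspan13 passed, 4 of the 23 members left. Of the 16591 genes left, 1844 were higher and 2242 lower.

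**Figure D4:**
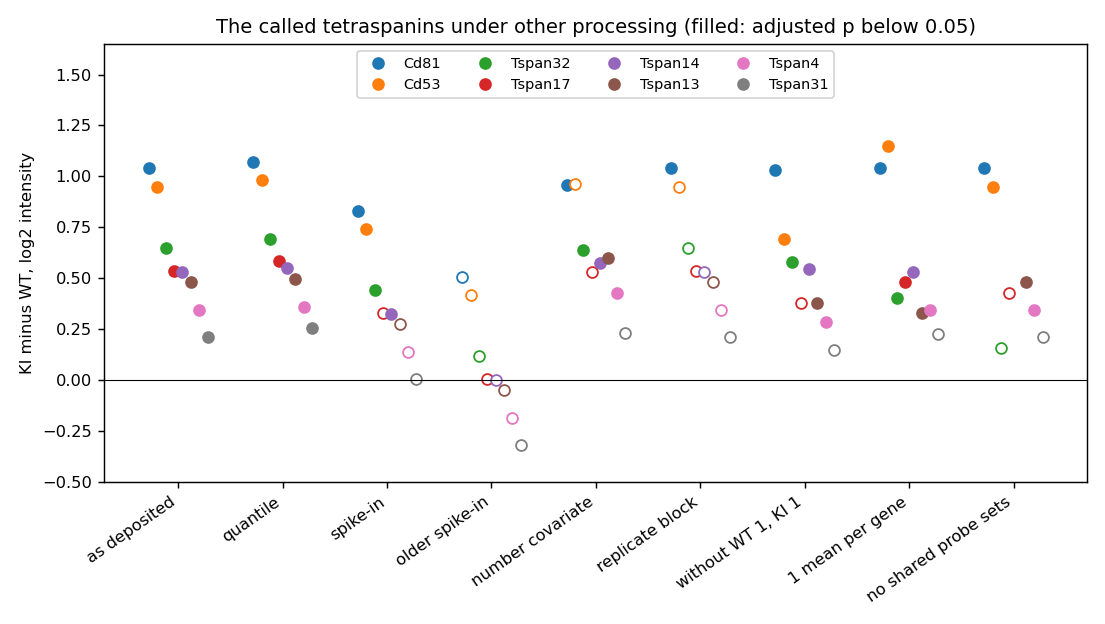
Difference in log2 intensity (vertical axis) of the 8 called tetraspanins under the deposited values and 8 alternatives (the last leaves out probe sets of broader match, so Tspan14 has no point there), filled where the adjusted p was below 0.05. Under older spike-in scaling no point is filled and the values run from -0.32 for Tspan31 to 0.51 for Cd81.

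Genes of proteins that bind tetraspanins, or are shed or sorted with them, were counted in the same fit. Among 49 partners, 15 were higher, 4 lower and 30 not past the threshold (38.8% passed, against 26.8% of all genes). Their median difference was 0.14. Of genes above the median probe set 40.9% passed, and 43 of the 49 partners were this bright. The partners thus passed at a share near that of bright genes. With spike-in scaling 8 were higher and 8 lower; with the older spike-ins, 6 and 12. With the covariate 7 were higher and 1 lower, against 707 and 964 of all 18193 genes. Without KI 1 or KI 2, 9 rose and 2 fell, without KI 3, 8 and 2, and without WT 2, 2 fell.

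ADAM10, the protease that C8 tetraspanins carry, and the related ADAM17 differed in outcome. Adam10 had intensities of 5567, 5863 and 6004 on WT and 5053, 6130 and 5770 on KI arrays. These overlapped, with a difference of -0.044 (SE 0.081, adjusted p = 0.75). Adam17 had 4551, 4593 and 4743 on WT and 5668, 6025 and 5593 on KI arrays. The KI arrays all lay higher, and the gene rose by 0.32 (SE 0.046, adjusted p = 0.0083), but the call ended under spike-in scaling (0.11, adjusted p = 0.33), with the covariate (0.0635) and with the mean of its probe sets (0.054), and the difference was -0.22 (adjusted p = 0.45) under older spike-in scaling. Notch1, a receptor that both proteases can cleave, rose by 2.06 (SE 0.19, 4.16-fold, adjusted p = 0.0029), from 414.8 ± 77.9 (SD, n = 3) to 1718 ± 286 (SD, n = 3). In the list of ADAM proteases and shed ligands 3 of 8 rose and 0 fell, where 11.9% of all genes rose and 14.9% fell. Of bright genes 17.8% rose and 23.1% fell, and all genes of this list but Cdh2 and Gp6 are bright. The list is too short to read as a result about the group.

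The immunoglobulin-domain partners of Cd9 and Cd81 are Ptgfrn, also called CD9P-1 or EWI-F, and Igsf8, also called EWI-2. Ptgfrn had 135.3, 121.4 and 111.1 on WT and 151.4, 141.2 and 135.7 on KI arrays, and Igsf8 had 1121, 1270 and 1361 on WT and 1539, 1403 and 1450 on KI arrays. Both had every KI array above every WT array, and neither passed (0.22, SE 0.098, adjusted p = 0.16 for Ptgfrn; 0.23, SE 0.086, adjusted p = 0.11 for Igsf8); under older spike-in scaling both turned lower. In the list of EWI and other immunoglobulin-domain proteins 0 of 8 rose and 2 fell, a share past the threshold (25%) near the 26.8% of all genes and below the 40.9% of bright genes, which all 8 are. Igsf3, a further member of the EWI family, went from 191.6 ± 58.8 (SD, n = 3) to 85.2 ± 10.7 (SD, n = 3), a difference of -1.13 (SE 0.23, adjusted p = 0.021). It no longer passed in the fits that dropped WT 2 (adjusted p = 0.055), KI 1 (0.071), KI 2 (0.053) or KI 3 (0.070), nor with the covariate (0.087). Icam1, an adhesion ligand of leukocyte integrins, fell by 0.76 (SE 0.10, adjusted p = 0.0071), and did not pass with the covariate (-0.76, adjusted p = 0.055).

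Of 12 integrin genes, all bright, 4 rose, 1 fell and 7 did not pass, a share past the threshold (41.7%) close to the 40.9% of bright genes. Itgal, the alpha chain of LFA-1, rose by 1.75 (SE 0.10, 3.36-fold, adjusted p = 0.0012), Itgb5 by 1.597 (SE 0.14, adjusted p = 0.0026) and Itga6, a laminin-binding chain that associates with Cd151, by 1.54 (SE 0.17, adjusted p = 0.0044). Itgav, the alpha chain of the vitronectin receptor of osteoclasts, fell by 0.59 (SE 0.16, adjusted p = 0.046), and missed the threshold in each fit that dropped WT 2 (0.078), WT 3 (0.057), KI 1 (0.131), KI 2 (0.066) or KI 3 (0.134), after quantile normalization (0.053), with the covariate (0.152), with the mean of its probe sets (0.188) and without the probe sets of broader match (0.0502). Of 11 other receptors, 2 rose and 1 fell, a share (27.3%) close to the 26.8% of all genes. Cd36, a scavenger receptor found in complexes with tetraspanins, rose by 2.26 (SE 0.14, adjusted p = 0.0012), and Kit, a receptor tyrosine kinase of progenitors and mast cells, fell by 0.50 (SE 0.058, adjusted p = 0.0049) at intensities below the median probe set.

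Of 10 genes of exosome and endosome sorting, 6 rose (Sdcbp, Rab7, Rab27a, Ap3b1, Lamp1 and Lamp2), 0 fell and 4 did not pass, where 17.8% of bright genes rose and 23.1% fell and all 10 of these are bright. The list had a median difference of 0.34 and a range from -0.074 to 1.03. It was chosen with earlier results of these data known, and its genes were not followed singly through the alternative fits. Older spike-in scaling moved the median of all genes from -0.0013 to -0.52. That is more than the differences of Sdcbp (0.37), Rab7 (0.31), Rab27a (0.47), Ap3b1 (0.29) and Lamp1 (0.46), while Lamp2 stood at 1.03. Sdcbp encodes syntenin, which loads tetraspanin-rich exosomes, Rab27a the GTPase that docks them for release, and Lamp1 and Lamp2 the main lysosomal membrane glycoproteins. The 4 that did not pass were Pdcd6ip, Tsg101, Rab27b and Syt7.

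**Figure D5:**
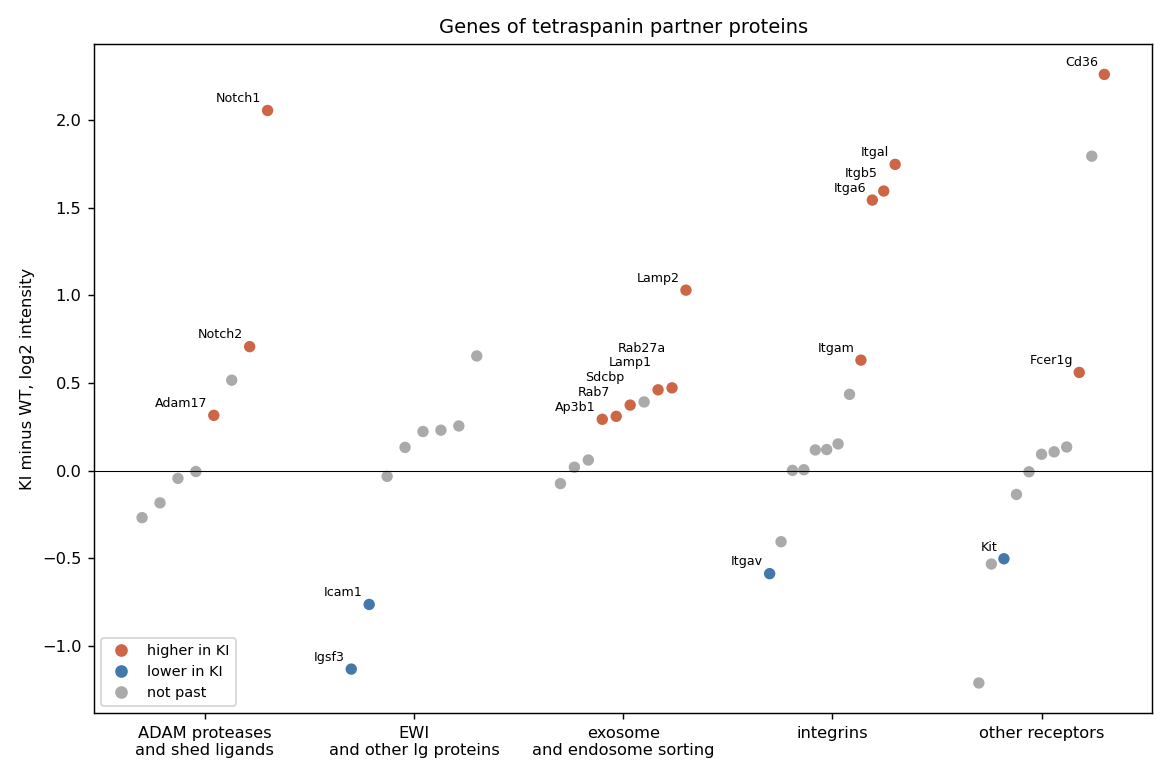
Difference in log2 intensity (vertical axis) for 49 partner genes in 5 groups (horizontal axis), orange where higher, blue where lower and grey where the gene did not pass. The exosome and endosome group has 6 orange and 0 blue points, and the EWI group 0 orange and 2 blue.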

How the data were processed

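Per the labels' protocols, biotin-labelled cRNA of 3 WT and 3 KI samples was put on Affymetrix arrays. The authors deposited 1 linear intensity per probe set and array, made with Affymetrix Expression Console, per the submitters' processing notes; the sources name no version, summarisation or normalization. Precision is limited by the small number of arrays.

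Of 45101 probe sets, 64 controls were left out, and 34945 of the rest had a single gene symbol. Intensities were floored at 16 (5.46% of values lay below) and log2 transformed. KI was compared with WT in R 4.3.3 by limma 3.58.1, whose moderated variances followed an intensity trend, over 18193 genes, each by its brightest probe set, and separately over 45037 probe sets, with no filter on dim ones and Benjamini-Hochberg adjustment. The fit was run on simulated data in which genes varied independently, which cannot show how it handles shifts shared by many genes of an array.

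Members and lists were chosen with earlier results of these data known. Per-array values are given for members that passed and for the osteoclast-studied and C8 genes; Cd37 and Tspan9 were added after their values were seen; partners named with values are up to 5 of smallest p in each direction among those past the threshold (4 were lower), plus Adam10, Adam17, Ptgfrn and Igsf8. Promoter windows and gene order came from RefSeq tables (GRCm38.p6). Alternatives were other scalings, spike-ins included, variance priors, a filter on dim probe sets, log2 of the intensity plus 32, array weights, a replicate block, a covariate, other probe set choices and left-out arrays.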

Additional observations from a re-analysis of the deposited data

How the results depend on the processing

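Over 20 alternatives, the 18 tetraspanins given with values kept their direction and side of the threshold in 285 fits, kept the direction but lost the call in 41, gained a call in 4 and turned direction in 28; 4 of the 28, for Tspan4, Tspan13, Tspan14 and Tspan31 under older spike-in scaling, also lost a call. The count of tetraspanins higher in KI ranged from 4 to 7 over fits without 1 array, and that lower stayed at 0. Over all genes the count higher ranged from 894 (without KI 3) to 1993 (without WT 1), against 2164 with all arrays. Tetraspanins numbered 4 higher and 1 lower with the spike-ins, 0 and 5 with the older spike-ins, and 4 higher without probe sets of broader match. Their median was 0.08 as deposited, 0.268 with the filter on dim probe sets, which leaves 17 members, -0.126 with the spike-ins and -0.45 with the older ones. Partners, 15 higher and 4 lower, ranged from 8 to 15 higher and from 2 to 4 lower over fits without 1 array; they were 8 and 8 with the spike-ins, 6 and 12 with the older ones, 7 and 1 with the covariate, with 7 lower with array weights and 2 lower without probe sets of broader match. Over all genes the counts higher and lower were 707 and 964 with the covariate and 3201 and 3557 with array weights. Without probe sets of broader match they were 1844 and 2242 of 16591 genes. Deviations from the group mean correlated at -0.365, -0.261 and -0.266 between same-numbered arrays. With 3 arrays per group these values cannot decide whether the samples were paired, and the labels name no block. A fit that took the replicate number as a block gave 1 tetraspanin higher, Cd81, and 3 partners higher and 0 lower. Of all 18193 genes it gave 146 higher and 198 lower. The 3 partners were Cd36, Itgal and Itgb5. Notch1 (adjusted p = 0.053), Itga6 (0.053), Kit (0.057) and Icam1 (0.063) did not pass in it.

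Directions turned as follows, and the cause was not tested. Under older spike-in scaling values were -0.464 for Cd151, -0.216 for Cd37, -0.0512 for Tspan13, -0.00216 for Tspan14, -0.524 for Tspan3, -0.319 for Tspan31, -0.189 for Tspan4, -0.262 for Tspan9, -0.215 for Adam17, -0.299 for Igsf8 and -0.307 for Ptgfrn. Under spike-in scaling they were -0.14 for Cd151 and -0.2 for Tspan3. Tspan15 turned to 0.00563 with quantile normalization, 0.0765 with array weights and 0.0434 without WT 1 and KI 1. Tspan33 turned to 0.00092 with log2 of the intensity plus 32, 0.108 with array weights, 0.171 without WT 1 and KI 1 and 0.123 without probe sets of broader match. Tspan3 turned to -0.0891 with the covariate, and without WT 1 and KI 1 Cd37 to -0.161 and Adam10 to 0.00334. Fits without 1 array ranged from -0.0382 to 0.553 for Cd37, from -0.0316 to 0.0632 for Tspan3, from -0.144 to 0.221 for Tspan33, from -0.0788 to 0.048 for Tspan15 and from -0.105 to 0.034 for Adam10.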

Other observations

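Tetraspanin genes with other names, which the choice of members by symbol leaves out, were looked at in the same limma fit. None of Upk1a and Upk1b, the uroplakins of the bladder lining, Prph2 and Rom1, the tetraspanins of photoreceptor discs, passed, at an adjusted p or at an unadjusted p below 0.05. Their differences ran from -0.086 for Upk1a to 0.19 for Upk1b, and 3 of the 4 lay below the median probe set, Rom1 being the exception.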
